A study of Mus musculus with 6 samples.

Results

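The genes described here encode the receptor, kinases and transcription factors through which cells answer type I interferon: Ifnar1, Ifnar2, Jak1, Tyk2, Stat2, Irf9, Irf1, Irf7 and Irf5. They were chosen by gene name, with earlier results of these data known. All 9 were found among the 22027 protein-coding genes of the deposited table. Expression was measured by RNA sequencing in RAW 264.7, a mouse macrophage-like line grown from a virus-induced tumour and labelled wild type. The cells received, by lipofection, 10 pmol per well of either a non-targeting siRNA, here siCTL (n = 3), or one directed at Tet3, the gene of a methylcytosine dioxygenase (siTET3, n = 3). All were harvested 48 h after transfection, so both groups carry the transfection reagent and a double-stranded RNA, and no untransfected cells were analysed here. The design compares gene expression between these groups.

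Type I interferons bind a receptor built from the chains IFNAR1 and IFNAR2, which hold the kinases TYK2 and JAK1. The kinases phosphorylate STAT proteins, among them STAT2, which join IRF9 in a complex called ISGF3. This complex binds a promoter sequence named the interferon-stimulated response element (ISRE) and switches on antiviral genes, that of IRF7 among them. IRF7 in turn drives interferon genes, IRF1 is itself induced through a STAT site called GAS, and IRF5 acts downstream of Toll-like receptors in macrophages.

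The groups rest on the sample titles, since the treatment field names siTET3 in all 6 samples. Nothing in the labels says that replicates were separate cultures, so p-values reflect the spread among the libraries at hand, possibly technical. Values are normalised read counts, the read counts of a gene divided by the authors' size factor of the library, and libraries held from 29587171 to 61709131 reads. Tet3 had 2171, 1911 and 2027 normalised reads in siCTL and 1939, 1980 and 1950 in siTET3, and the groups overlapped. Its log2 change was -0.06 (limma adjusted p = 0.699), and it was above 0 with library size as the sole scaling or when a trend of base content was removed. The treated libraries are therefore called the libraries labelled siTET3. The macrophage marker Csf1r had between 26934 and 32396 normalised reads in every library, but Mertk, also a macrophage marker, had between 0 and 34.2. All 4 epithelial markers listed and the T cell genes Cd3e, Cd4 and Cd8a were at 0 in every library, and the T cell gene Cd3d had at most 2.04. The dendritic cell marker Zbtb46 had between 50.7 and 78.5. The neutrophil marker S100a8 was at 0 in siCTL replicate 2 and between 40.5 and 62.1 elsewhere.

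One control library stood apart. In siCTL replicate 2, values rose with the GC content of a gene by 0.50 log2 units per 10 percentage points. The slopes were -0.06 and 0.07 in siCTL replicates 1 and 3 and from -0.20 to -0.15 in the libraries labelled siTET3. Leaving out siCTL replicate 2 thus leaves a difference in this trend between the groups. That library also held 286 normalised reads of Col1a2 and 109 of Pdgfra, both fibroblast markers, where no other library exceeded 3.27 and 5.79. The fibroblast list summed to between 8.10 and 395 in siCTL and between 7.13 and 8.99 in siTET3, with 2 of its 4 genes at a mean of at least 10, Col1a1 at 0 in every library and Dcn at 0 in siCTL replicate 2. Values without this library are therefore given beside many of the results below. Fewer cells of a type and less RNA per cell cannot be told apart in bulk RNA.

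Of the 9 genes, Irf7 rose in the libraries labelled siTET3 and 8 did not pass the test. The test was limma on log2(value + 1), with p-values adjusted over 11591 genes and a threshold of 0.05, and it called 0.293% of all genes higher and 0.0604% lower. The median log2 change of the 9 genes was 0.20 against -0.005 for all genes tested, and 7 of them were positive, as were 49.3% of all genes. Without siCTL replicate 2 the median of the 9 was 0.13, and 0.11 with the trend of base content also removed. The groups did not overlap for Irf7, Irf9 and Ifnar1, each higher in every library labelled siTET3, where 16.1% of all genes did the same and 31.5% were apart in either direction. None was lower in all 3, against 15.5% of all genes. Of the 9, 2 had an unadjusted limma p under 0.05, as did 13.2% of all genes. DESeq2 on the recovered reads called 2 higher, where it called 1.86% of genes higher. The authors' deposited table lists 2 of the 9, Irf7 and Irf9, as higher and none as lower, where it lists 1.55% of genes higher and 1.39% lower.

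**Figure D1:**
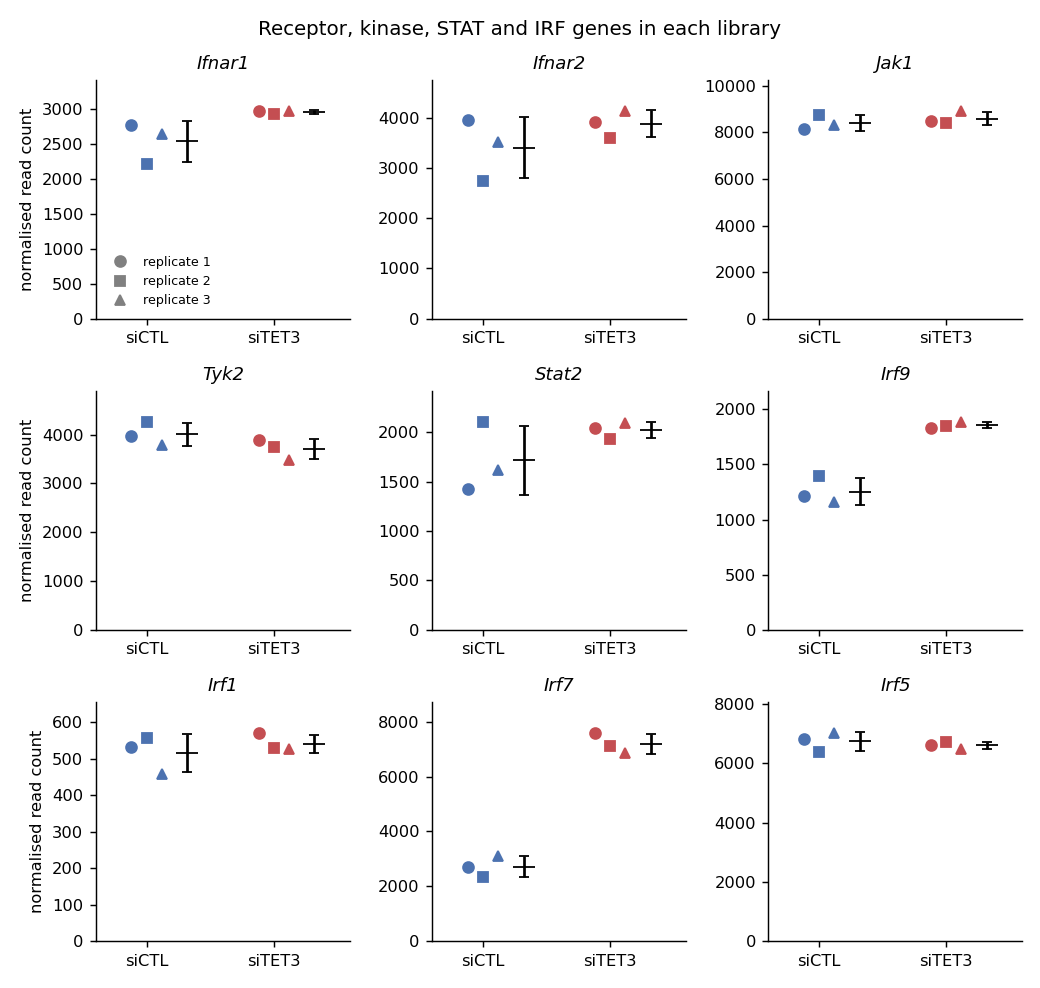
Normalised read count (y axis, from 0) of each gene in the 3 siCTL libraries (blue) and the 3 libraries labelled siTET3 (red), with symbols for replicate numbers and the mean ± SD (n = 3) in black. The groups are apart for Irf7, Irf9 and Ifnar1 and overlap for the other 6 genes, and in the Stat2 panel siCTL replicate 2 lies above the other siCTL libraries, at 2103.

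Irf7 had the largest difference of the 9. The gene (chromosome 7, 141262706 to 141266481, minus strand, GRCm38 as for all positions below) encodes the factor known for driving interferon-alpha genes. Its normalised read counts were 2701, 2327 and 3087 in siCTL replicates 1 to 3 and 7588, 7125 and 6866 in siTET3 replicates 1 to 3. The lowest library labelled siTET3 was thus above the highest control library by a wide gap. The means were 2705 ± 380 and 7193 ± 366 (SD, n = 3), and the fold was 2.67 with a 95% interval from 2.18 to 3.29. The log2 change of 1.42 ± 0.12 (SE) passed limma (adjusted p = 0.00916), edgeR on the recovered reads (adjusted p = 0.0127) and the authors' deposited comparison (adjusted p = 4.09e-20). The exact two-sided permutation test gave p = 0.1, the smallest that 3 against 3 libraries allow. Without siTET3 replicate 1, 2 or 3 the limma adjusted p was 0.123, 0.104 and 0.112, at log2 changes of 1.38, 1.43 and 1.45, while it stayed under 0.05 without each siCTL library.

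The Irf7 difference was present without siCTL replicate 2: without that library the log2 change was 1.32 (limma adjusted p = 1.68e-05), and with the trend removed from all libraries it was 1.61. The Irf7 transcript has a GC content of 56.5%, above 55.09%, where the highest of 4 equal GC groups of tested genes begins, and the median of that group in siCTL replicate 2 was 0.24 log2 units above the mean of the other siCTL libraries. Irf7 itself was 0.31 log2 units below that mean there. Irf7 shares 45 exon bases, or 1.19% of its exons, with Phrf1 on the other strand, which had 3426 normalised reads in siCTL against 2803 in those labelled siTET3.

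IRF9 and STAT2 are subunits of ISGF3, and the log2 changes of their genes were positive. Irf9 (chromosome 14, 55603571 to 55610030, plus strand), which encodes the DNA-binding subunit, had 1209, 1391 and 1162 normalised reads in siCTL against 1833, 1846 and 1884 in those labelled siTET3. The groups were apart, and the treated libraries lay close together. The means were 1254 ± 121 and 1855 ± 26.5 (SD, n = 3), a fold of 1.48 with a 95% interval from 1.26 to 1.74. With all libraries the log2 change of 0.57 did not pass limma (adjusted p = 0.115), although its unadjusted p was 0.000844 and ranked 85th of all genes.

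The Irf9 call changed with siCTL replicate 2 and with the tool. Without that library the log2 change was 0.65 (limma adjusted p = 0.000728), and with the trend of base content removed from all libraries it was 0.61 (limma adjusted p = 0.0421), where limma called 0.389% of genes higher. DESeq2 on the recovered reads gave it an adjusted p of 3.82e-05, and in the authors' deposited table the adjusted p of Irf9 is 8.75e-05. Irf9 did not pass edgeR on the recovered reads (adjusted p = 0.113). Nor did it pass without siCTL replicate 1 or 3 (limma adjusted p = 0.18 and 0.365). With 1 library labelled siTET3 left out, the limma adjusted p lay between 0.602 and 0.608. Irf9 shares 123 exon bases, or 2.28% of its exons, with Rnf31 on the same strand, whose counts were 1011 and 950 in the groups.

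Stat2 (chromosome 10, 128270559 to 128292849, plus strand), the subunit that carries the activation domain of ISGF3, had 1426, 2103 and 1621 normalised reads in siCTL. The libraries labelled siTET3 had 2038, 1935 and 2094. Control replicate 2 was above every treated library and the other controls were below all of them, so the groups overlapped through that library. The log2 change was 0.25 with a 95% interval from -0.11 to 0.62 (limma adjusted p = 0.408). Without siCTL replicate 2 it was 0.41, with an interval from 0.23 to 0.59, and passed (limma adjusted p = 0.0199). In that fit of 5 libraries, Irf7, Irf9 and Stat2 were called higher and no other of the 9, where 2.65% of all genes were called higher.

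**Figure D2:**
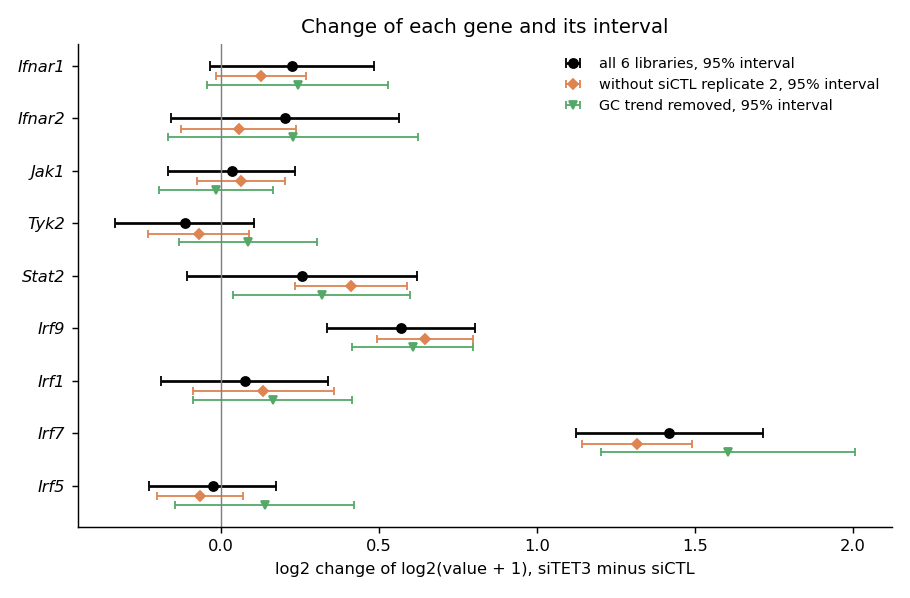
Log2 change of each gene (x axis, siTET3 minus siCTL, on the log2(value + 1) scale) with its 95% interval, for all 6 libraries (black), without siCTL replicate 2 (orange) and with the trend of base content removed (green). Irf7 lies between 1.32 and 1.61 and Irf9 between 0.57 and 0.65 in these fits, the Stat2 interval leaves 0 only in the coloured fits, and the other intervals all include 0.

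Neither receptor gene passed the test. Ifnar1 (chromosome 16, 91485238 to 91507441, plus strand), the chain that binds TYK2, had 2765, 2208 and 2645 normalised reads in siCTL against 2968, 2921 and 2971 in those labelled siTET3. The treated libraries were all above the controls, and siCTL replicate 2 was the lowest. The log2 change was 0.22 with a 95% interval from -0.04 to 0.48 (limma adjusted p = 0.382), and 0.13 without siCTL replicate 2 (limma adjusted p = 0.26).

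Ifnar2 (chromosome 16, 91372783 to 91405589, plus strand), the chain that binds JAK1, had 3951, 2745 and 3525 in siCTL against 3920, 3595 and 4136 in those labelled siTET3. The groups overlapped. The log2 change was 0.20 with an interval from -0.16 to 0.56 (limma adjusted p = 0.463) and was 0.055 without siCTL replicate 2. Both genes lie in a cluster of class II cytokine receptor genes with Il10rb and Ifngr2, which start at 91406164 and 91547072 on the same strand. Il10rb, a chain of the interleukin-10 receptor, had a log2 change of 0.08, and Ifngr2, a chain of the interferon-gamma receptor, had one of 0.28 (limma adjusted p = 0.586 and 0.33).

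Neither kinase gene passed the test. Jak1 (chromosome 4, 101152367 to 101265282, minus strand) had 8133, 8765 and 8306 normalised reads in siCTL against 8473, 8391 and 8922 in those labelled siTET3. The groups overlapped, and the log2 change was 0.03 with a 95% interval from -0.17 to 0.23 (limma adjusted p = 0.816), and -0.017 once the trend of base content was removed. Tyk2 (chromosome 9, 21104068 to 21131243, minus strand) had 3978, 4257 and 3790 in siCTL against 3886, 3740 and 3474 in those labelled siTET3. Its log2 change was -0.12 with an interval from -0.34 to 0.11 (limma adjusted p = 0.486), and it was 0.085 once the trend of base content was removed, so no direction is given. These intervals leave room for changes of Jak1 between 0.89-fold and 1.18-fold and of Tyk2 between 0.79-fold and 1.08-fold. An antisense gene not in the table, 1700084C06Rik, covers 554 exon bases, or 8.07%, of Tyk2.

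Irf1 and Irf5 did not pass the test either. Irf1 (chromosome 11, 53770014 to 53778374, plus strand), a short-lived factor of interferon-gamma and inflammatory signalling, was the lowest of the 9, with 534, 557 and 458 normalised reads in siCTL against 571, 529 and 527 in those labelled siTET3. The groups overlapped, and the log2 change was 0.07 with an interval from -0.19 to 0.34 (limma adjusted p = 0.687), and it was -0.0092 without siCTL replicate 3. Irf5 (chromosome 6, 29526625 to 29541871, plus strand) had 6832, 6372 and 7024 in siCTL against 6609, 6734 and 6494 in those labelled siTET3. Its log2 change was -0.03 with an interval from -0.23 to 0.17 (limma adjusted p = 0.848), and its sign turned with the scaling. Irf5 shares 411 exon bases, or 14.1% of its exons, with Tnpo3 on the other strand, and no source used here says whether reads were counted by strand.

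The coefficient of variation was larger between control libraries than between treated libraries for all 9 genes, as for 84.3% of all genes tested. It ran from 3.89% for Jak1 to 20.3% for Stat2 in siCTL, and from 0.948% for Ifnar1 to 7.02% for Ifnar2 in the libraries labelled siTET3. Part of the control spread lay in siCTL replicate 2. Against the mean of siCTL replicates 1 and 3, it held 1.38 times as much Stat2 and 1.17 times as much Irf9, but 0.734 times as much Ifnar2, 0.804 times as much Irf7 and 0.816 times as much Ifnar1.

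Per kb of each gene's principal transcript, the control levels ordered the genes as Irf5 (3009 ± 150 normalised reads per kb), Jak1 (1712 ± 66.5), Irf7 (1412 ± 198), Ifnar2 (1118 ± 201), Tyk2 (830 ± 48.7), Ifnar1 (650 ± 75.03), Irf9 (510 ± 49.1), Stat2 (391 ± 79.3) and Irf1 (242 ± 24.4; SD, n = 3). In that order, the ranges of mean ± SD overlapped for Irf7 and Ifnar2 and for Irf9 and Stat2. Such ranges ignore that both genes were measured in the same libraries. Within each siCTL library Irf9 was above Stat2, at ratios from 1.18 to 1.52. With the length of all annotated exons in place of the principal transcript, that ratio ran from 0.728 to 0.933. The order thus depends on the length used. In the libraries labelled siTET3 the level of Irf7 was 3754 ± 191 and that of Irf5 2951 ± 53.5 reads per kb (SD, n = 3). There the ranges of mean ± SD overlapped for Tyk2, Ifnar1 and Irf9, at 766 ± 43.2, 756 ± 7.17 and 754 ± 10.8 (SD, n = 3).

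**Figure D3:**
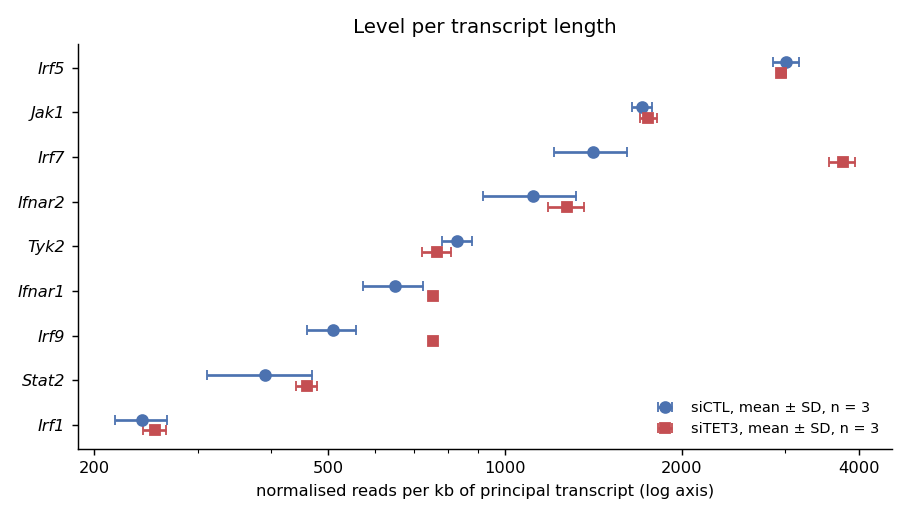
Level of each gene in normalised reads per kb of its principal transcript (log x axis), as mean ± SD (n = 3), in siCTL (blue circles) and in libraries labelled siTET3 (red squares). Irf7 moves from 1412 to 3754 and Irf9 from 510 to 754, while Irf5 is at 3009 and 2951 and Jak1 at 1712 and 1752.

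Ratios of genes within a library do not depend on the size factor of the library. The trend of base content, which differed between libraries, was not removed from these ratios. For 5 pairs, chosen after the values were seen, the ratio of reads per kb was compared between the groups by the exact two-sided permutation test, whose smallest p here is 0.1. The Irf7 to Irf9 ratio was 2.87, 2.15 and 3.41 in siCTL against 5.31, 4.95 and 4.68 in those labelled siTET3, so Irf7 differed by a factor of 1.80 more than Irf9. The Irf9 to Stat2 ratio was 1.52, 1.18 and 1.28 against 1.61, 1.70 and 1.61, a factor of 1.24.

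In both ratios the groups did not overlap (exact permutation p = 0.1, and 0.167 adjusted over the 5 pairs). The Irf7 to Irf5 ratio ran from 0.427 to 0.514 in siCTL and from 1.24 to 1.34 in the libraries labelled siTET3 (exact permutation p = 0.1). With the length of all annotated exons in place of the principal transcript, the latter range was 0.813 to 0.883, so which of the genes is higher there depends on the length used. The Ifnar1 to Ifnar2 ratio was 0.586 ± 0.041 and 0.594 ± 0.037 (SD, n = 3), and overlapped (exact permutation p = 0.7). The Jak1 to Tyk2 ratio was 2.07 ± 0.080 and 2.29 ± 0.20 (SD, n = 3), also with overlap (exact permutation p = 0.2).

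**Figure D4:**
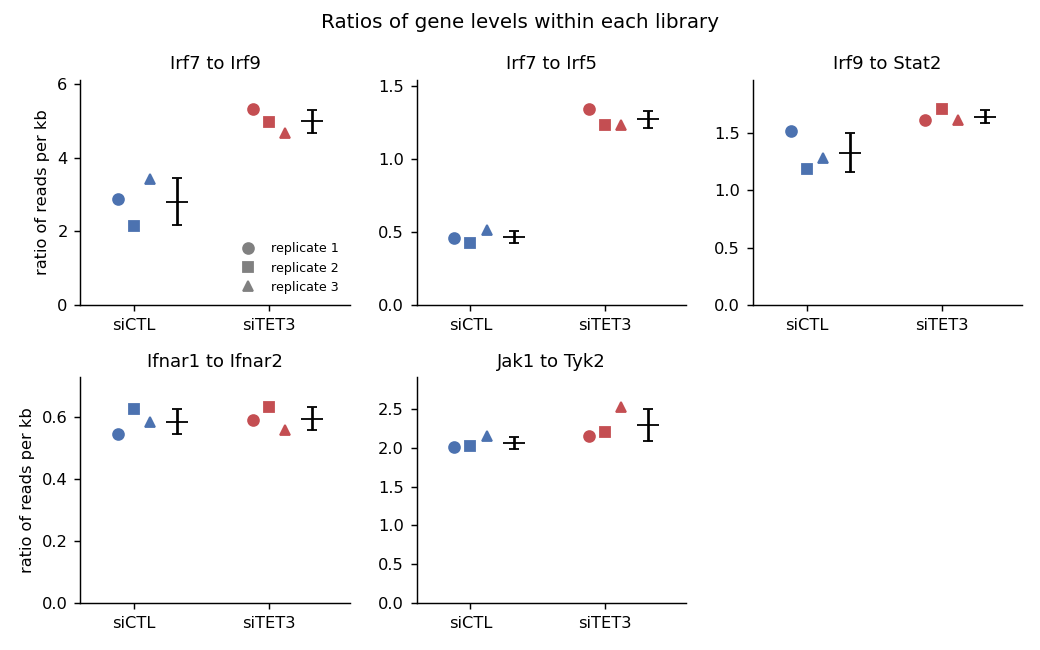
Ratio of normalised reads per kb for 5 gene pairs (y axes from 0) in each siCTL library (blue) and each library labelled siTET3 (red), with the mean ± SD (n = 3) in black. The ratios of Irf7 to Irf9, Irf7 to Irf5 and Irf9 to Stat2 are apart between the groups, while those of Ifnar1 to Ifnar2 and Jak1 to Tyk2 overlap.

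Promoter windows of 300 bases, from 250 before to 50 after each RefSeq start (GRCm38.p6), were read for all 9 genes, which gave 11 windows. They were searched on both strands for the ISRE core (GAAA, any 2 bases, GAAA) and the GAS core (TTC, any 3 bases, GAA). The ISRE core was in the window of 1 gene, Stat2, and in 3.44% of the 32851 windows of all genes. The GAS core was in those of Irf1, Ifnar1 and Ifnar2, and in 8.30% of all windows. A match describes letters, not a site in use, and no match concerns these windows only.

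Shown are the windows of Stat2, whose capitals mark the ISRE core on the reverse strand, of Irf1 (1 of its 2 windows), whose capitals mark the GAS core, and of Irf7, the gene that rose, which has neither and so no capitals. They lie at chr10:128270248-128270547 (plus strand), chr11:53769764-53770063 (plus strand) and chr7:141266375-141266674 (minus strand), and are written 5′ to 3′ on the strand of the gene.
Stat2: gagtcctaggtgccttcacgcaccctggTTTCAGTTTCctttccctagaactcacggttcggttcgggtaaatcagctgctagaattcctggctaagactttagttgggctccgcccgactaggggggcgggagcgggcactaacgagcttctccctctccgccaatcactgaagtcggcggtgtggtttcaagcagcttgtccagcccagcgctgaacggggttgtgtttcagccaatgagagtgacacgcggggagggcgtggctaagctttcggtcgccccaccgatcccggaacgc
Irf1: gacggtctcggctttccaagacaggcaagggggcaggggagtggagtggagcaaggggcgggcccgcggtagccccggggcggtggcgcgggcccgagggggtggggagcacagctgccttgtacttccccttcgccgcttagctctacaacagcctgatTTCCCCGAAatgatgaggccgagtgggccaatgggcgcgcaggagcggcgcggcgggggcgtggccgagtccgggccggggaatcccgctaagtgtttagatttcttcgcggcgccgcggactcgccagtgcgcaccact
Irf7: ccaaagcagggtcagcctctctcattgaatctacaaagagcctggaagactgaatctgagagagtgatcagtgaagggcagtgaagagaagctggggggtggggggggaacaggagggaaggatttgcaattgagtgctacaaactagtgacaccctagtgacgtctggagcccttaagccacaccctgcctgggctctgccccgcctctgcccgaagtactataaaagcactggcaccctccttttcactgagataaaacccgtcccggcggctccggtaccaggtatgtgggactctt
The Stat2 match begins 222 bases before the start and the Irf1 match 90 bases before it. The GAS letters of Ifnar1 are TTCACGGAA, 5 bases before the start, and those of Ifnar2 TTCCTGGAA, 214 bases before it. Neither window of Irf9 held either core. Of the ISRE-driven target genes described next, 18 had windows, and 9 of those held the ISRE core.

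The interferons themselves were close to absent. Of 18 type I interferon genes, 16 were at 0 in every library. Ifnb1 had 6 reads in siTET3 replicate 2 and Ifna2 had 3 reads in siTET3 replicate 3, and both were at 0 in the other libraries, where a count of 0 allows up to 3 reads. None of the 18 reached the mean of 10 needed for the test. Ifng, Ifnl2 and Ifnl3, the genes of type II and type III interferons, and Ifnlr1, a receptor chain for type III, were at 0 in every library. Of the other 4 genes listed limma called none, and DESeq2 called 1 higher, where it called 1.86% of all genes higher. An unadjusted limma p under 0.05 was found for 1 of them, against 13.2% of all genes. Ifngr2 and Ifngr1 had log2 changes of 0.28 and 0.16 (limma adjusted p = 0.33 and 0.433), and of 0.23 and 0.079 without siCTL replicate 2.

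Among the 6 other JAK and STAT genes reported here limma, edgeR and DESeq2 called none, 1 had an unadjusted limma p under 0.05 (13.2% of all genes), and the median log2 change was -0.01, or 0.07 with the trend of base content removed. Jak3, a kinase of common gamma chain receptors, and Stat5a, a STAT of growth factor and cytokine receptors, had log2 changes of -0.21 and -0.15 (limma adjusted p = 0.368 and 0.443), and both were above 0 once that trend was removed. Without siCTL replicate 2 the log2 change of Stat5a was -0.077. A list of other IRF genes also holds Irf2bp1, Irf2bp2 and Irf2bpl, which encode IRF2-binding proteins and not IRFs. Limma, edgeR and DESeq2 called none of its 7 tested genes, and none had an unadjusted limma p under 0.05, against 13.2% of all genes. The median log2 change of that list was -0.15, but 0.03 once the trend of base content was removed. Irf3, the factor that starts interferon-beta transcription, and Irf2bp1, a gene of an IRF2 partner, had -0.23 and -0.20 (limma adjusted p = 0.39 and 0.378). Irf3 was at -0.12 without siCTL replicate 2 and at -0.035 once that trend was removed, where Irf2bp1 turned positive. Of 11 negative regulators of the receptor pathway, Usp18, whose protein binds IFNAR2 and displaces JAK1, rose (log2 change 1.81, limma adjusted p = 0.00181). Limma called 1 of the 11 higher and 1 lower, against 0.293% and 0.0604% of all genes. Among the same regulators Socs3, known to bind gp130 and its JAKs, fell (log2 change -0.77, limma adjusted p = 0.0238). The Socs3 call was lost without siCTL replicate 1 or 3 or any library labelled siTET3 (log2 changes from -0.74 to -0.78, limma adjusted p from 0.0789 to 0.291) and with the trend of base content removed (log2 change -0.52, limma adjusted p = 0.32).

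Of 19 sensing and induction genes tested, 2 rose, both cytosolic RNA sensors that are also interferon-induced. Limma called 0.293% of all genes higher, and 4 of the 19 had an unadjusted limma p under 0.05, against 13.2% of all genes. Ddx58, which encodes RIG-I, had a mean of 1284 ± 92.7 in siCTL and 2702 ± 98.6 in those labelled siTET3 (SD, n = 3; limma adjusted p = 0.00864). Ifih1, which encodes MDA5, went from 1168 ± 71.3 to 2069 ± 91.4 (SD, n = 3, limma adjusted p = 0.0238). With the trend of base content removed Ifih1 did not pass (log2 change 0.57, limma adjusted p = 0.0892), nor with libraries scaled to their size alone (log2 change 0.91, limma adjusted p = 0.0571). The list had a median log2 change of 0.22, and 0.14 without siCTL replicate 2. The count was 1 without siCTL replicate 1, 3 without replicate 2 and 0 without replicate 3 or any library labelled siTET3. Over all genes the count of 34 higher became 22, 305 and 9 without siCTL replicate 1, 2 or 3, and 2 or 3 without a library labelled siTET3.

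Of 22 ISRE-driven genes tested, 12 rose and none fell, 21 were positive and the median log2 change was 1.44. Of all genes limma called 0.293% higher and 0.0604% lower, and 49.3% were positive. This list, like the others, was chosen with earlier results of these data known, so its counts are no independent test. Parp14 went from 1149 ± 67.6 to 2513 ± 103 normalised reads, Oas2 from 441.5 ± 11.3 to 1215 ± 153 and Oas1a from 1887 ± 92.7 to 2952 ± 54.4 (SD, n = 3, limma adjusted p = 0.00691, 0.00691 and 0.0437). Oas1a and Oas2 encode enzymes that make 2-5A, the activator of RNase L, and Parp14 encodes an ADP-ribosyltransferase. The others called were Rtp4, Xaf1, Isg15, Ifi44, Ifit3, Zbp1, Ifit1, Rsad2 and Oasl2. Leaving out siCTL replicate 1, 2 or 3 made the count of 12 into 11, 20 and 5, and leaving out any library labelled siTET3 made it 1. The medians lay between 1.38 and 1.47 in all 6 such fits. Over all genes the count of 34 higher became 22, 305 and 9 without siCTL replicate 1, 2 or 3. It became 2 or 3 without a library labelled siTET3.

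Of 14 GAS- and IRF1-driven genes tested, limma and edgeR called none. DESeq2 called 2 higher, where it called 1.86% of all genes higher. An unadjusted limma p under 0.05 was found for 4, against 13.2% of all genes. Log2 changes were positive for 10, as for 49.3% of all genes, and the median was 0.13. Gbp2, a guanylate-binding protein gene, had 32.9 ± 10.8 normalised reads in siCTL against 99.6 ± 7.43 in those labelled siTET3 (SD, n = 3; limma adjusted p = 0.135), and Tap1, a peptide transporter gene of antigen presentation, had a log2 change of 0.29 (limma adjusted p = 0.308). In the authors' deposited table their adjusted p-values are 0.000371 and 0.0403. Without siCTL replicate 2 limma called 3 of the 14 higher, each a guanylate-binding protein gene, against 2.65% of all genes. Gbp2 was among them (log2 change 1.82, limma adjusted p = 0.00445) and Tap1 was not (limma adjusted p = 0.0503). The difference between the lists was not tested.

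**Figure D5:**
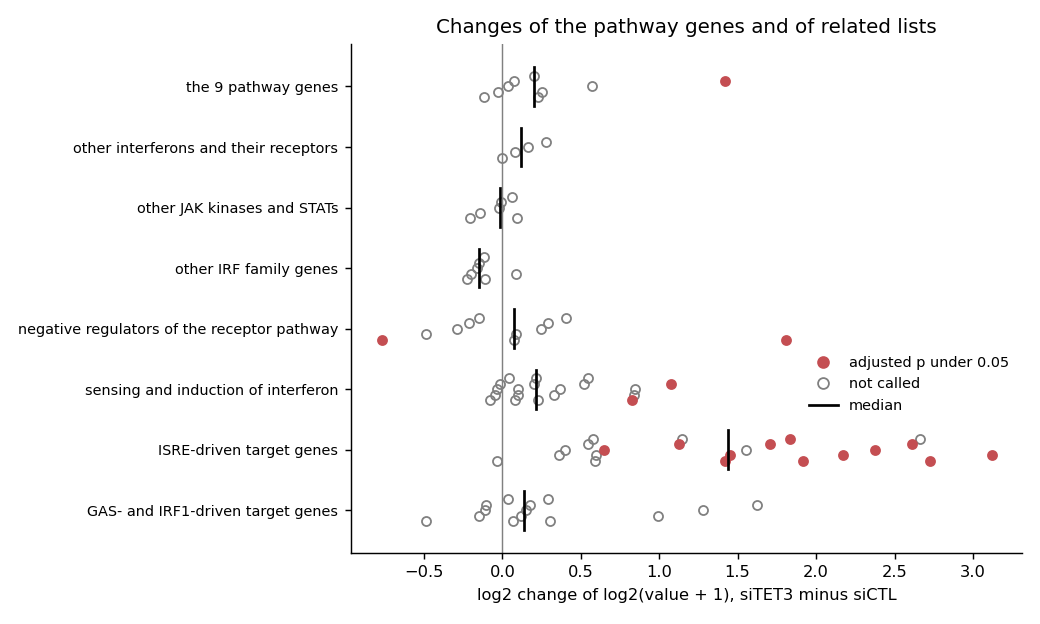
Log2 change (x axis, siTET3 minus siCTL, on the log2(value + 1) scale) of each tested gene in the 9 pathway genes and 7 related lists, with called genes filled and medians as black bars. The ISRE-driven list has a median of 1.44 and 12 filled points, while the medians of the other rows lie between -0.15 and 0.22.

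The genes whose pattern over the 6 libraries was most like that of Irf7, by Pearson correlation of log2 values among 9734 genes with a mean of at least 100, were Ccnf (r = 0.999), Pif1 (r = 0.999) and H2-T24 (r = 0.997). Pif1, which encodes a DNA helicase, had 237, 224 and 264 normalised reads in siCTL against 510, 478 and 457 in those labelled siTET3. Those most like Irf9 were Icam1, Asph and Cenpf (r = 0.994, 0.990 and 0.989), and those most like Ifnar1 were Cysltr1, Lats1 and Zfp386 (r = 0.999, 0.999 and 0.998). With 6 points from the same libraries such values describe shape only. The Ifnar1 set shares a low siCTL replicate 2: Cysltr1 had 270 normalised reads there against 623 and 520 in the other control libraries.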

How the data were processed

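The deposited signal values are gene read counts that the authors divided by a size factor for each library. In every library 100% of them came out as whole numbers of reads (within 0.001 reads), which is how the scaling was recognised. Log2 fold changes made by the authors stand beside them, siCTL over siTET3 and turned here to siTET3 over siCTL. Their standard errors and Wald statistics (score columns) and the authors' p-values are named per the file headers as DESeq2 names them. Per the submitters' processing notes the build was GRCm38 (mm10). Aligner and counter: not given in the sources used here. The deposited workbook's other sheets were not used.

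Genes with a mean under 10 units were left out, which kept all 9 described here. Limma 3.58.1 (R 4.3.3) with a variance trend was run on log2(value + 1), with no term but the group, and p-values were adjusted by Benjamini-Hochberg. Fold changes are on that scale, which understates low genes. For fits on fewer libraries the filter was reapplied. edgeR 4.0.16 (quasi-likelihood) and DESeq2 1.42.0 were run on the recovered reads, which lets depth count. The trend of base content was a spline on transcript GC content, removed per library. Coordinates, exons and principal transcripts come from GENCODE M21 (GRCm38), and promoter windows from RefSeq. Results of 1 other gene of the pathway are not reported here. Members and gene lists were chosen with earlier results of these data known. Named from each list are the genes called or, failing any, those 2 with the smallest p. Replicates of a group differed beyond sampling noise in every pair (median chi-square per gene at least 1.58).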

Additional observations from a re-analysis of the deposited data

How the results depend on the processing

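Changing the pseudocount or the minimum mean, or adding TMM scaling, changed no call of the 9 genes. The number of the 9 called was 1, and became 2 with the trend of base content removed or with DESeq2, 3 without siCTL replicate 2 with or without that removal, and 0 without each library labelled siTET3, a range of 0 to 3 over libraries left out. The share of all genes called higher moved too, from 0.293% to 0.389% with the trend removed and 1.86% with DESeq2. It was 2.65% without siCTL replicate 2, and 2.29% with the trend also removed. Irf9 passed with the trend removed (0.61), with it removed and siCTL replicate 2 left out (0.64) and with DESeq2 (0.57), and ranged from 0.52 to 0.65 with 1 library left out. Stat2 passed with siCTL replicate 2 left out and the trend removed (0.43) and ranged from 0.13 to 0.41. Irf7 ranged from 1.32 to 1.52, and Irf1 from -0.0092 to 0.13. Signs turned with the trend removed, with and without the block, for Jak1 (-0.017), Tyk2 (0.085), Irf5 (0.14), Tet3 (0.23), Jak3 (0.11), Stat5a (0.023) and Irf2bp1 (0.19). They turned with siCTL replicate 2 also left out for Tyk2 (0.040), Irf5 (0.020), Tet3 (0.065), Stat5a (0.013) and Irf2bp1 (0.078), and with scaling to library size for Irf5 (0.057) and Tet3 (0.029). Irf5 ranged from -0.067 to 0.0029 with 1 library left out. The cause was not tested.

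Over all genes 34 were higher and 7 lower. These became 216 and 219 with DESeq2, 263 and 189 without siCTL replicate 2 and the trend, and 2 to 305 and 0 to 257 with 1 library left out. Lower genes numbered 4 with no filter and 2 with scaling to library size. With the replicate number as a block, 1 gene was higher and 0 lower (1175 genes at an unadjusted p under 0.05), or 4 and 0 with the trend also removed, and 0 of the 9 were called, with Irf7 at 1.42 (limma adjusted p = 0.0998) and 1.61 (limma adjusted p = 0.102). Same-numbered libraries did not deviate together (r = 0.03, -0.06 and -0.10 over genes), and no library correlated best with its own number. With 3 libraries a group, small changes of the 9 genes could not be told from 0. Of 450 values of 25 other genes, 345 kept direction and call, 87 lost the call, 6 gained it and 12 changed sign.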
